A study of Mus musculus with 3 samples.

Results

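The cells described here are megakaryocyte-like cells that carry transcripts of *Kdr*, the gene of the main vascular endothelial growth factor receptor of endothelium, set against megakaryocyte-like cells of the same cluster with few or no *Kdr* transcripts. Both groups came from cluster 6 of the authors' cell annotation and had at least 5,000 unique molecular identifiers (UMIs, each counting 1 captured messenger RNA molecule). Cells were chosen by their *Kdr* count: those above 0.5 *Kdr* UMIs per 10,000 UMIs of the cell were called *Kdr*-positive, and the others *Kdr*-negative. There were 207 *Kdr*-positive and 102 *Kdr*-negative cells, together 309 of the 9,562 cells of the series. Because the groups were selected on *Kdr*, its values are given as a description only and *Kdr* was left out of all comparisons of genes.

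The series profiled endothelial cells of the adult mouse heart by 3′ single-cell RNA sequencing, either fresh (0 h) or taken at 24, 48, 72 or 96 h from co-aggregates with PDGFRA-positive stromal cells (PSCs) of the *Mesp1* lineage, taken from E11.5 embryos, with the question of which genes endothelium switches on as it acquires blood-forming potential. According to the study's methods the heart cells came from adult female mice with GFP under the ubiquitin C promoter and were sorted as GFP+ CD31+ VE-cadherin+ PDGFRA-, with CD41 and CD45 also excluded from the fresh sample, the PSCs carried a DsRed label of *Mesp1* descent, and tissue of several animals was pooled. All co-aggregates were kept in medium with serum, SCF, Flt3 ligand and an interleukin. Time points were mixed in each of 3 pools (A, B and C), and the files used here tie neither a cell to a time point nor a barcode suffix to a pool.

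The count matrix was therefore handled as 1 sample, with no test between conditions. Each value is the sum of a gene's UMIs over a group of cells per 10,000 UMIs of that group, called its level. Intervals are exact at the 95% level and cover counting error only. Values are also given for the 3 barcode libraries (suffixes 1, 2 and 3) as a check on whether a difference had the same direction in each. The libraries held from 72,496,908 to 92,498,954 UMIs and differed in depth, with medians of 23,651, 13,440.5 and 38,312 UMIs per cell. In all, 13 barcode sequences occurred in 2 libraries, which touched 1 cell of cluster 6. Scrublet called 8 of all cells as doublets (0.0837%), 2 of them in cluster 6, which is too few for the call to be of use as a filter.

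The megakaryocyte label held for the cluster as a whole. *Pf4* (platelet factor 4, a chemokine stored in platelet granules) reached 167 UMIs per 10,000 in the 309 cells against 0.485 in all other clusters, and *Itga2b* (CD41, the α-chain of the platelet fibrinogen receptor) reached 6.76 against 0.0959. *Treml1*, *Gp1bb* and *Gp9*, which encode platelet receptors, each had a UMI in at least 92.6% of the cells. The label did not hold for every cell, since 61 of the 309 had fewer than 10 *Pf4* UMIs per 10,000.

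Megakaryocytes are large haematopoietic cells that shed platelets, and in the embryo they arise from the yolk sac and from haemogenic endothelium, an endothelium that buds off blood cells. Endothelial and megakaryocytic cells share transcription factors of the GATA, ETS and TAL families. *Kdr* marks endothelium and mesodermal precursors of blood, and its product is usually lost as blood cells mature.

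The promoters of the 3 marker genes and of *Cldn5*, which had the largest ratio of the endothelial surface list, are shown because the cells combine transcripts of both kinds. Each line gives the 250 bases before the start of the gene on its own strand, 5′ to 3′, from RefSeq on GRCm38.p6. *Kdr* lies at chr5:75978456-75978705 (minus strand), *Cldn5* at chr16:18776597-18776846 (plus), *Itga2b* at chr11:102469884-102470133 (minus) and *Pf4* at chr5:90772185-90772434 (plus). By GENCODE M21 the gene of *Itga2b* starts further upstream, so much of its window lies within the gene in that annotation. Capitals mark ETS core motifs (CCGGAA or CAGGAA) and GATA core motifs (AGATAA or TGATAA), searched on both strands.
Kdr: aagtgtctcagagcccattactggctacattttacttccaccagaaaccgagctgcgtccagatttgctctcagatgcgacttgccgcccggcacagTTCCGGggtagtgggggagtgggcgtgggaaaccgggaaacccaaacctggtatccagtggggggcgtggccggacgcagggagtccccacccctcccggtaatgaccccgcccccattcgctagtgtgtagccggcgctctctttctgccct
Cldn5: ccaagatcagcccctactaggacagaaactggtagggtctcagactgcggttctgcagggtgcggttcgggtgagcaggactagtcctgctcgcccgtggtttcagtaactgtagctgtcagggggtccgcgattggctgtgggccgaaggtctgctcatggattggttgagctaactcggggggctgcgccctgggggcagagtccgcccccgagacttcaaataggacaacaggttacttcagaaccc
Itga2b: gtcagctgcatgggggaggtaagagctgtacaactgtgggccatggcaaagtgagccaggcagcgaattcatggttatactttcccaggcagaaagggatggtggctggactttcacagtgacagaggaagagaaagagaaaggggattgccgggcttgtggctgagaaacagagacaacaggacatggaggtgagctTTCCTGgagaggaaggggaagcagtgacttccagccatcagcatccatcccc
Pf4: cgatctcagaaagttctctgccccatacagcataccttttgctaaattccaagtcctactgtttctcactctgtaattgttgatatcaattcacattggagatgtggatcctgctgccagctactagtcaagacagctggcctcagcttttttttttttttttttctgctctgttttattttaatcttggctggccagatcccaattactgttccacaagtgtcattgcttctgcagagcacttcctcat
The window of *Kdr* held 1 CCGGAA, read on the opposite strand 153 to 148 bases before the start, and that of *Itga2b* held 1 CAGGAA, on the opposite strand 52 to 47 bases before the start. None of the 4 motifs was found in the windows of *Cldn5* and *Pf4*, and no motif overlapped another. Of all 32,851 windows of this length, 35.1% held an ETS core and 16.6% a GATA core. *Cdh5* was not among the promoters used.

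*Kdr* (chr5:75932827-75978458 on GRCm38) was graded over these cells. Of the 309 cells, 54 had no *Kdr* UMI and 48 lay above 0 but at or below the threshold. In the *Kdr*-positive group, 33 cells had 1 *Kdr* UMI, 34 had 2, and 140 had 3 or more, with 49 in the highest cell. The lowest *Kdr*-positive cells stood at 0.505, 0.506 and 0.506 UMIs per 10,000, and the highest *Kdr*-negative cells at 0.499, 0.494 and 0.487, so the groups meet without a gap and 32 cells lay within 0.1 of the threshold. The summed level was 1.54 in *Kdr*-positive cells and 0.202 in *Kdr*-negative cells, which is what the rule selects for.

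Depth decides which cells can be placed in the *Kdr*-negative group, since any cell under 20,000 UMIs with a single *Kdr* UMI exceeds the threshold. All 24 *Kdr*-negative cells under 20,000 UMIs accordingly had no *Kdr* UMI, beside 82 *Kdr*-positive cells of that depth. Over all libraries the groups had similar median depth, at 31,565 UMIs (*Kdr*-positive) and 33,326.5 (*Kdr*-negative). Under 10,000 UMIs, however, lay 52 of 207 *Kdr*-positive and 15 of 102 *Kdr*-negative cells. By library the medians were 38,791 and 40,562 in library 1, 12,957.5 and 22,268.5 in library 2, and 61,790 and 60,762 in library 3. Only in library 2 did the depths stand apart, and this library held 108 of the 207 *Kdr*-positive cells and 44 of the 102 *Kdr*-negative cells. Mitochondrial transcripts were similar, with a median of 300.3 UMIs per 10,000 in *Kdr*-positive cells and 307 in *Kdr*-negative cells.

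**Figure D1:**
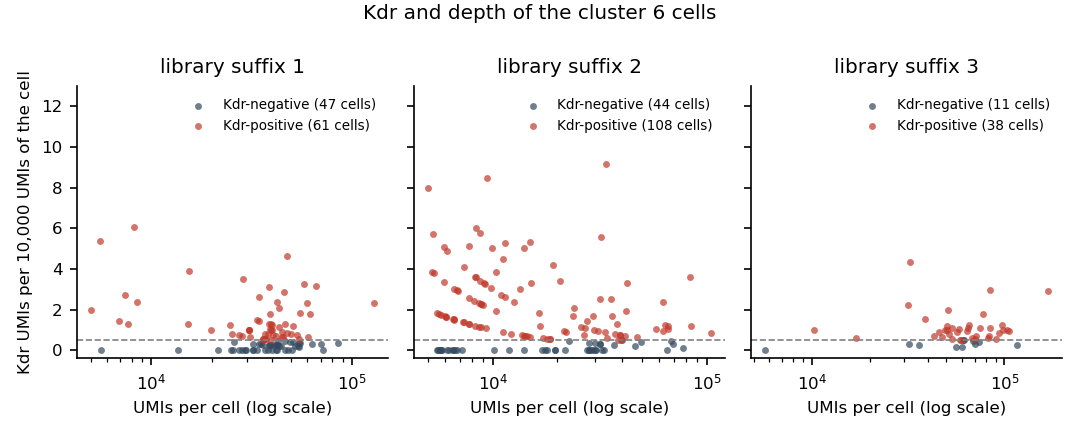
*Kdr* UMIs per 10,000 UMIs of the cell (y axis, linear) against UMIs per cell (x axis, log scale), 1 panel per barcode library. Points are cells, red for *Kdr*-positive and dark for *Kdr*-negative, and the dashed line is the threshold of 0.5. The bands of shallow cells in library 2 are cells with 1, 2 or 3 *Kdr* UMIs, and no cell of library 2 under 20,000 UMIs lies between 0 and the threshold.

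The share of *Kdr*-positive cells in cluster 6 was 67.0% (exact interval 61.4 to 72.2%), and it was 56.5%, 71.1% and 77.6% in libraries 1, 2 and 3. It was 95.8%, 73.0% and 98.0% in clusters 0, 1 and 2, which were rich in endothelial transcripts (median of 57.8 to 98.3 UMIs per 10,000 over 18 endothelial surface and junction genes without *Kdr*), and 36.8%, 22.9% and 26.4% in clusters 3, 4 and 5, where that median was 2.29 to 4.35. After every cell was thinned to 5,000 UMIs, 46.0% of cluster 6 cells (40.3 to 51.7%) had a *Kdr* UMI, against 28.0%, 17.2% and 20.3% of clusters 3, 4 and 5. Median depth was 32,195 UMIs in cluster 6 and 30,053 in clusters 3 to 5 together.

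The same *Kdr* values were compared between cells with few other endothelial transcripts. Among cells with fewer than 10 UMIs per 10,000 of the 18 endothelial genes, a limit that was set with the values in view, 55.8% of the 208 in cluster 6 were *Kdr*-positive (48.7 to 62.6%), against 8.01% of the 1,648 in clusters 3 to 5 (6.74 to 9.43%). The *Kdr* level of these cells was 0.658 UMIs per 10,000 in cluster 6 (0.604 to 0.715) and 0.0902 in clusters 3 to 5 (0.0829 to 0.0980). By library the levels were 0.505 and 0.0787, 0.737 and 0.151, and 0.773 and 0.0667. The level was 4.89 in clusters 0 to 2. These are the values that chose the cells, and the part of free RNA in them was not tested.

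Among the cluster 6 cells with few endothelial transcripts, *Kdr* was also seen more in those rich in *Pf4*. Cells with at least 10 *Pf4* UMIs per 10,000 had a *Kdr* level of 0.727 (0.662 to 0.796, 160 cells) and those with fewer had 0.427 (0.340 to 0.530, 48 cells). The respective levels were 0.548 and 0.348 in library 1, 0.841 and 0.518 in library 2, and 0.847 and 0.376 in library 3, the last from 6 cells with little *Pf4*. These are again the *Kdr* values that chose the groups, and *Pf4* is a marker of the label. The intervals do not cover the spread between cells, and the difference was not tested.

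Genome-wide, 5,659 genes with a level of at least 0.2 over the 309 cells were compared, and a gene was called where it differed at least 1.5-fold over all cells and in the same direction in each of the 3 libraries. By this rule 203 genes were higher in *Kdr*-positive cells (3.59% of those compared) and 30 were lower (0.53%). The median log2 ratio over all genes compared was 0.02, so the ratios were centred close to 0. Of the 203 higher genes, 195 had a higher level in clusters 0 to 2 than in the *Kdr*-negative cells, as did 2,684 of all 5,659 genes compared, while only 4 of the 30 lower genes did. The level in *Kdr*-negative cells also set which genes were called, so these counts follow in part from the choice and are a description. The 12 genes with the largest ratios in each direction, by the rule in the methods, were 3 globins, *Fabp4*, *Col4a1*, *Crip2*, *Cldn5*, *Cdh5*, *Emcn*, *Ramp2*, *Sparc* and *Id3* on the higher side, and *Gm15915*, *Rac2*, *Phgdh*, *Pdcd4*, *Mt1*, *Car2*, *Spns2*, *Bex4*, *Ccnd2*, *Rcc1*, *Shmt2* and *Psmb10* on the lower side.

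The count of lower genes depended on the libraries. It was 102 without library 1, 46 without library 2 and 32 without library 3, and both the cells and the number of libraries that must share a direction then change. The count of higher genes ranged from 228 to 277 when 1 library was left out.

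**Figure D2:**
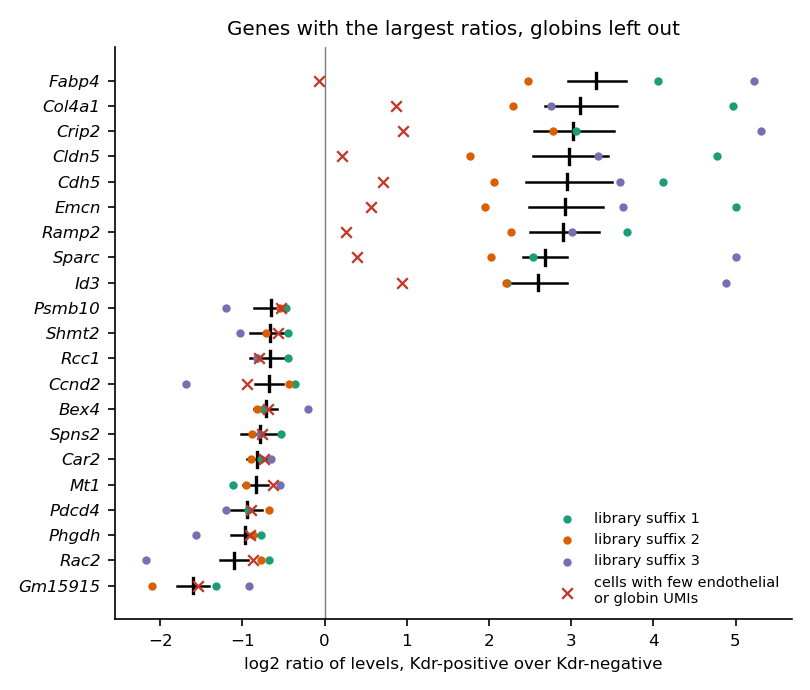
Log2 ratio of levels, *Kdr*-positive over *Kdr*-negative cells (x axis), of the genes with the largest ratios in each direction, globins left out (y axis). Black ticks and lines give the value over all 309 cells with its exact 95% counting interval, coloured points the 3 libraries, and red crosses the 206 cells with few endothelial or globin UMIs. The crosses of the higher genes lie between -0.07 and 0.95, left of the black ticks at 2.60 to 3.30, whereas those of the lower genes stay between -1.55 and -0.54.

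Endothelial genes were prominent on the higher side. All 18 members of the list of endothelial surface and junction genes had a higher level in *Kdr*-positive cells. Of these 12 were expressed enough to be compared, and 11 were called higher and none lower, beside 3.59% and 0.53% of all genes. The level of 6 of the 12, *Cdh5*, *Cldn5* and *Emcn* among them, was under 0.2 in *Kdr*-negative cells, so they passed the limit only through the group where they were high, and the count of calls is a description. Their median log2 ratio was 1.68, and it was 2.06, 1.32 and 2.15 in libraries 1, 2 and 3. The summed level of the 18 genes was 12.2, 13.3 and 9.52 UMIs per 10,000 in the *Kdr*-positive cells of the 3 libraries and 4.11, 6.48 and 3.46 in the *Kdr*-negative cells, so the library sums of the groups did not overlap, although single cells did.

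*Cdh5* (VE-cadherin, the adhesion molecule of endothelial junctions and also part of the sort gate, chr8:104101625-104144511) had levels of 0.721, 0.877 and 0.563 in the *Kdr*-positive cells of libraries 1, 2 and 3. Its levels in the *Kdr*-negative cells were 0.0414, 0.210 and 0.0467. The log2 ratio over all cells was 2.95 (2.45 to 3.50), from 508 UMIs against 34, and 49.8% of *Kdr*-positive and 23.5% of *Kdr*-negative cells had a *Cdh5* UMI. *Cldn5* (claudin-5, a tight-junction protein, chr16:18776847-18778262) behaved likewise, with levels of 1.13, 0.999 and 0.779 against 0.0414, 0.293 and 0.0779 and a log2 ratio of 2.98 (2.54 to 3.45). *Emcn* (endomucin, a glycoprotein of the luminal surface) had a log2 ratio of 2.92.

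Some members of the list had smaller ratios. *Pecam1* (CD31, likewise used in the sort and present on platelets) had levels of 0.986, 1.12 and 0.811 against 0.336, 0.530 and 0.405, a log2 ratio of 1.25. *Esam*, an adhesion molecule shared by endothelium and platelets, had a log2 ratio of 0.87. *Egfl7*, a secreted vascular protein, was the only compared gene of the list that was not called, at 2.46 against 1.74 UMIs per 10,000 and a log2 ratio of 0.51.

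Receptors and ligands of the vascular endothelial growth factor and angiopoietin pathways were compared next. Of the 13 members with a row among the counts, 6 were compared and 4, all receptors, were called higher, beside 3.59% of all genes. Of the 6, 3 had a level under 0.2 in *Kdr*-negative cells and passed the limit only through the *Kdr*-positive group. *Flt1*, a decoy receptor for the growth factor, had levels of 0.421, 0.716 and 0.324 against 0.0465, 0.274 and 0.0312 and a log2 ratio of 2.11. The coreceptors *Nrp1* and *Nrp2* had log2 ratios of 2.75 and 2.94, and the orphan receptor *Tie1* had 0.71. *Angpt1*, the ligand of TIE2 that megakaryocytes also make, was at 0.502 against 0.518, and *Vegfb* was at 0.251 against 0.308. Among transcription factors of the endothelial and Notch list, which had 20 members, 3 were compared. Of these, 2 had a level under 0.2 in *Kdr*-negative cells and likewise passed the limit only through the *Kdr*-positive group. *Ets1* and *Elk3*, both of the ETS family, were higher, at log2 ratios of 2.29 and 1.62, and *Klf2* (induced by flow) had 0.51 and was not called.

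Genes of heart capillaries, which take up fatty acids for the muscle, were also on the higher side. All 14 members had a higher level in *Kdr*-positive cells, and their sum was 7.89, 7.56 and 5.19 UMIs per 10,000 in the 3 libraries, against 1.15, 2.08 and 0.810 in *Kdr*-negative cells. The 6 that were compared were all called higher, beside 3.59% of all genes, with a median log2 ratio of 2.47, but 4 of them had a level under 0.2 in *Kdr*-negative cells and passed the limit only through the *Kdr*-positive group. *Fabp4*, a fatty acid carrier, had levels of 2.83, 1.88 and 1.17 against 0.171, 0.338 and 0.0312. *Mest*, an imprinted gene of growing tissue, had levels of 3.07, 3.30 and 2.27 against 0.445, 0.786 and 0.327. The basement membrane genes *Col4a1* and *Sparc* had log2 ratios of 3.102 and 2.68.

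**Figure D3:**
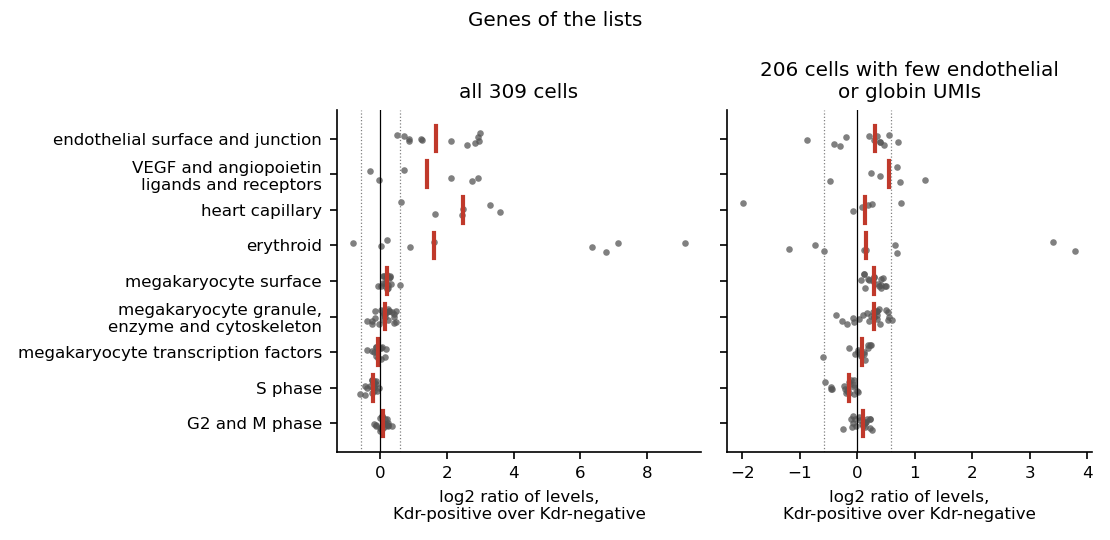
Log2 ratio of levels, *Kdr*-positive over *Kdr*-negative cells (x axis), of each compared gene (points) in 9 gene lists (y axis), for all 309 cells (left) and for the 206 cells with few endothelial or globin UMIs (right, with its own x range). Red bars are list medians and dotted lines mark 1.5-fold. The endothelial, growth factor and heart capillary medians are 1.68, 1.41 and 2.47 on the left and 0.32, 0.55 and 0.14 on the right.

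The endothelial transcripts were not spread evenly over the *Kdr*-positive cells. The median cell had 7.87 UMIs per 10,000 of the 18 genes and the highest had 76.5, against a median of 4.30 and a highest value of 68.9 in *Kdr*-negative cells. A level of 10 or more was reached by 91 of 207 *Kdr*-positive cells (44.0%) and by 10 of 102 *Kdr*-negative cells (9.80%). By library the shares were 39.3% and 2.13%, 54.6% and 20.5%, and 21.1% and 0%, the last from 0 of 11 cells, which allows a share of up to 27.3%.

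Along *Kdr* itself, the endothelial list was higher in the upper ranges. Its median was 4.50 UMIs per 10,000 in the 54 cells with no *Kdr* UMI, 4.17 in the 48 cells up to 0.5, 4.39 in the 72 cells from 0.5 to 1, 5.91 in the 67 cells from 1 to 2, 22.3 in the 53 cells from 2 to 5 and 36.02 in the 15 cells above 5. The share of cells with 10 or more was 16.7%, 2.08%, 12.5%, 32.8%, 84.9% and 100% in the same order. Cells just above the *Kdr* threshold were thus close to the *Kdr*-negative cells in this list, and most cells rich in the list had a *Kdr* value above 1. Library 2, the shallowest, gave 32, 12, 26, 34, 35 and 13 of the cells in these ranges. Depth also changed, with medians of 25,312, 45,336, 39,362.5, 34,564, 12,556 and 8,697 UMIs. A cell under 10,000 UMIs with a single *Kdr* UMI lies above 1, so such cells cannot fall in the ranges between 0 and 1. Depth was not matched along these ranges. The *Kdr*-positive and *Kdr*-negative groups were close only in their median depth over all libraries. In the 94 *Kdr*-positive and 64 *Kdr*-negative cells with 20,000 to 60,000 UMIs (medians of 39,006.5 and 36,510) the median log2 ratio of the endothelial list was 1.63.

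Cells rich in endothelial transcripts still had megakaryocyte transcripts. The 88 *Kdr*-positive cells with 10 or more endothelial UMIs and no excess of globin had a median of 39.6 UMIs per 10,000 of the 20 megakaryocyte surface genes (range 9.81 to 289) and of 87.8 for *Pf4*. Their *Kdr* level was 2.66 and their median depth 10,160 UMIs, with 57 of the 88 in library 2. The 114 *Kdr*-positive cells below both limits had medians of 58.9 and 180, a *Kdr* level of 0.996 and a median depth of 39,198.5.

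**Figure D4:**
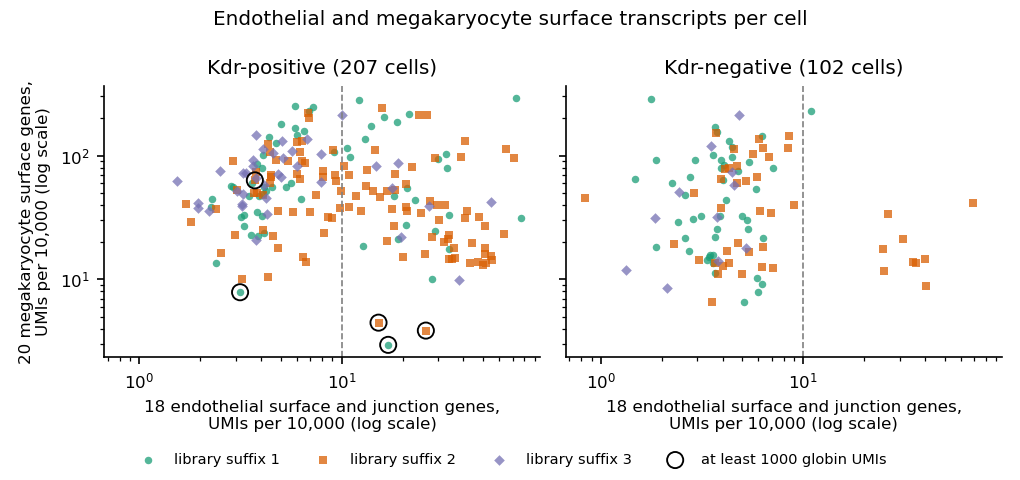
Summed UMIs per 10,000 of 18 endothelial surface and junction genes (x axis, log scale) against those of 20 megakaryocyte surface genes (y axis, log scale) for *Kdr*-positive (left) and *Kdr*-negative cells (right). Points are cells, with colour and shape for the library, circles mark the 5 cells with at least 1,000 globin UMIs per 10,000 and the dashed line is the limit of 10. To its right lie 91 *Kdr*-positive and 10 *Kdr*-negative cells, most of them of library 2, at megakaryocyte levels that overlap those to its left.

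The excess of endothelial transcripts was also compared with their level in endothelium. For the 20 genes called higher in the endothelial surface, growth factor and heart capillary lists, the difference between *Kdr*-positive and *Kdr*-negative cells was 7.82 to 39.8% of the level in clusters 0 to 2, with a median of 12.2%. It was 12.6% for *Cdh5*, 12.2% for *Cldn5* and 10.8% for *Emcn*, and 39.5% for *Fabp4*, of which 51.4% of the UMIs came from 5 of the *Kdr*-positive cells. The share of UMIs held by the 5 cells with most ranged from 14.3 to 65.2% over the 20 genes, with a median of 29.1%. Where the transcripts came from was not tested.

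Megakaryocyte genes, by contrast, had small ratios of summed UMIs. Of 20 surface genes 17 were compared and 16 had a log2 ratio above 0. None was called in either direction, beside 3.59% and 0.53% of all genes, and at such shares no call among 17 genes says little. The median log2 ratio was 0.19 (0.12, 0.19 and 0.39 in the 3 libraries), and -0.066 with *Kdr* above 0 as the threshold. Per cell, the median sum of the 20 genes was 51.3 UMIs per 10,000 in *Kdr*-positive and 34.2 in *Kdr*-negative cells. By library these medians were 55.7 and 43.8, 40.0 and 34.2, and 66.3 and 32.0. *Itga2b* (chr11:102453297-102470122) had levels of 7.23, 7.09 and 7.30 in the *Kdr*-positive cells of libraries 1, 2 and 3 and of 5.92, 5.45 and 6.61 in the *Kdr*-negative cells, so that the former were above the latter throughout. Its log2 ratio was 0.29 (0.22 to 0.36), under the 1.5-fold limit, and a UMI was found in 200 of 207 and 100 of 102 cells. *Itga6*, a laminin receptor, had the largest ratio of the list at 0.58. The log2 ratios of the glycoprotein genes *Gp1ba*, *Gp5*, *Gp6* and *Gp9*, which form the platelet receptors for von Willebrand factor and collagen, were 0.17, 0.29, 0.08 and 0.02.

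Granule, enzyme and cytoskeleton genes had 25 members, all compared, of which 19 had a log2 ratio above 0. None was called higher or lower, beside 3.59% and 0.53% of all genes. Their median was 0.13 (0.10, 0.15 and 0.21), which turned to -0.064 with *Kdr* above 0 as the threshold. *Pf4* (chr5:90772435-90773383) had levels of 180.4, 140 and 216 in the *Kdr*-positive cells of the 3 libraries, and of 169, 107 and 116 in the *Kdr*-negative cells. The log2 ratio was 0.35 (0.33 to 0.36). The difference was wider in the middle of the distribution, where the median cell had 124 *Pf4* UMIs per 10,000 in the *Kdr*-positive and 65.2 in the *Kdr*-negative group. Fewer than 10 were found in 30 of 207 *Kdr*-positive cells (14.5%) and in 31 of 102 *Kdr*-negative cells (30.4%), and these shares were 13.1% and 25.5%, 17.6% and 31.8%, and 7.89% and 45.5% in the 3 libraries. *Vwf*, which encodes the von Willebrand factor of platelet granules and endothelium, had a log2 ratio of 0.39 and *Thbs1* (thrombospondin) 0.27. *Ppbp*, another platelet chemokine, went the other way at 7.15 against 9.35, with levels of 10.2 and 9.20, 3.77 and 10.1, and 7.41 and 8.52 in the 3 libraries, so that its direction differed between them.

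Over the pooled libraries, the megakaryocyte medians were highest in the middle ranges of *Kdr*. Library 2 gave 35 of the 53 cells from 2 to 5 and 13 of the 15 above 5. Among *Kdr*-positive cells its *Pf4* median was the lowest, at 86.0 against 139 in library 1 and 243 in library 3. Median depth was 12,556 and 8,697 UMIs in these upper ranges. The ranges were not separated by library or depth, so what part of the course goes with these was not tested. The median of the surface genes was 34.9, 32.2, 50.4, 62.1, 39.3 and 31.6 UMIs per 10,000 from no *Kdr* to above 5, and the median of *Pf4* was 69.6, 61.8, 142, 175, 97.9 and 65.5. The ranges from 0.5 to 1 and from 1 to 2, with endothelial medians of 4.39 and 5.91, therefore had the highest *Pf4* medians. In these ranges 12.5% and 32.8% of the cells had 10 or more endothelial UMIs per 10,000. The share of cells with fewer than 10 *Pf4* UMIs per 10,000 was 25.9%, 35.4%, 16.7%, 19.4%, 7.55% and 6.67%.

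**Figure D5:**
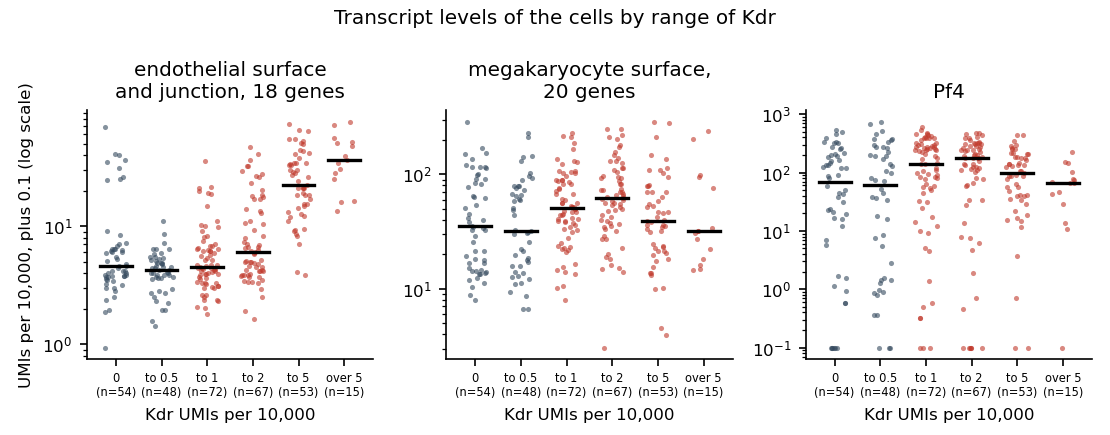
Levels per cell (y axes, log scale, UMIs per 10,000 plus 0.1) of the endothelial list, the megakaryocyte surface list and *Pf4* in 6 ranges of *Kdr* (x axis, with the number of cells). Points are cells, dark for *Kdr*-negative and red for *Kdr*-positive, and bars are medians. Over the pooled libraries, the endothelial medians stay between 4.17 and 5.91 up to a *Kdr* of 2 and reach 22.3 and 36.02 beyond it. The *Pf4* median is highest, at 175, between 1 and 2.

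No transcription factor of the lineage was called higher or lower, beside 3.59% and 0.53% of all genes. Of 15 members 14 were compared, 5 had a log2 ratio above 0, and the median was -0.08. *Gata1*, required for megakaryocyte and erythroid development, was at 1.518 against 1.499 UMIs per 10,000, *Fli1* at 2.32 against 2.23, *Runx1* at 1.61 against 1.77 and *Nfe2* (needed for platelet release) at 0.752 against 0.894. For the 7 factors shared by endothelium and blood, 6 were compared and had a median of -0.12, with *Lmo2* at 2.94 against 3.77 and *Erg* below the limit for comparison.

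The largest ratios of all belonged to globin genes and came from very few cells. *Hbb-y* had a level of 23.9 in *Kdr*-positive and 0.294 in *Kdr*-negative cells, but 99.3% of its *Kdr*-positive UMIs came from 5 cells. These cells, 2 in library 1 and 3 in library 2, had 2,023 to 2,926 globin UMIs per 10,000 (the next cell of the cluster had 454), no *Pf4* UMI and 2 to 6 *Kdr* UMIs. Their transcripts were mainly the embryonic *Hbb-y*, *Hba-x* and *Hbb-bh1*, the globins of yolk sac erythroblasts, and 4 of the 5 had fewer than 8 UMIs per 10,000 of the megakaryocyte surface genes. In the other *Kdr*-positive cells *Hbb-y* was at 0.172 and *Hba-x* at 0.0473, against 0.294 and 0.0218 in *Kdr*-negative cells, so that the call of *Hbb-y* rested on these 5 cells. *Hba-a1* remained at 1.64 against 0.0354 without them, from 21 *Kdr*-positive cells in all with a UMI. *Hba-a1* and *Hba-a2* are near-identical copies, and reads may have been split between them. Of 9 erythroid genes compared, 3 globins were called higher and *Car2* lower, beside 3.59% and 0.53% of all genes. Of the 9, 3 had a level under 0.2 in *Kdr*-negative cells and passed the limit only through the *Kdr*-positive group. *Epor* and *Tfrc*, the receptors for erythropoietin and transferrin, had log2 ratios of 0.02 and 0.19.

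Markers of further cell types were also summed. The leukocyte list summed to 12.02 UMIs per 10,000 in *Kdr*-positive and 11.88 in *Kdr*-negative cells. None of its 5 compared genes of 19 was called higher or lower, beside 3.59% and 0.53% of all genes. *Ptprc* (CD45), *Csf1r* and *Spi1* were at 0.0197, 0.0268 and 0.196 against 0.0354, 0.0545 and 0.2725. *C1qb*, *S100a8* and *Mpo* went the other way, at 0.127, 0.0451 and 0.086 against 0.0409, 0.0136 and 0.0599. The direction of *Csf1r* differed between libraries, at 0.0651 against 0.00517 in library 1 and 0.00799 against 0.265 in library 3. The stromal list summed to 0.502 against 0.185, with no gene reaching the level for comparison. In libraries 1, 2 and 3 it summed to 0.204 against 0.243, 0.450 against 0.174 and 0.823 against 0.0312. Its direction thus differed between libraries. The cardiomyocyte list summed to 0.785 against 0.943, and its compared gene *Actc1* was not called. The germ or pluripotent list summed to 1.08 against 0.0627. *Dppa5a*, its single compared gene, was called at 0.437 against 0.0109, but only 9 *Kdr*-positive and 3 *Kdr*-negative cells had a UMI, 5 cells held 98.7% of the UMIs, and its direction in library 3 rests on a level of 0.0040 against 0. Of 16 stem and progenitor genes 6 were compared, and *Cd34* and *Hmga2* were higher, at 0.821 against 0.253 and 0.679 against 0.403. *Cd34* is also made by endothelium, and among cells with few endothelial or globin UMIs it was at 0.182 against 0.217. *Kit* was not expressed enough to be compared.

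Genes lower in *Kdr*-positive cells changed by less, 1.57-fold to 3.04-fold for the 12 named, and were found in many cells of both groups. Between 48.8 and 74.4% of *Kdr*-positive cells and between 66.7 and 87.3% of *Kdr*-negative cells had a UMI of them. *Rac2*, the blood-specific member of the Rac GTPases (chr15:78559167-78572783), had levels of 0.886, 0.799 and 0.559 in the *Kdr*-positive cells and of 1.42, 1.37 and 2.52 in the *Kdr*-negative cells of libraries 1, 2 and 3, and a log2 ratio of -1.10 (-1.28 to -0.93). *Gm15915*, annotated as an antisense transcript at chr10:93674218-93683322, had the largest difference, with levels of 0.625, 0.419 and 0.444 against 1.56, 1.79 and 0.841 and a log2 ratio of -1.60 (-1.80 to -1.41). Whether the counting used strand is not given in the sources used here, so reads of a gene on the other strand cannot be told apart.

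*Phgdh*, which opens serine synthesis, had levels of 0.812, 0.851 and 0.823 against 1.39, 1.56 and 2.43 and a log2 ratio of -0.97. *Shmt2*, which passes serine carbon to folate in mitochondria, had -0.66. *Pdcd4*, an inhibitor of translation, had -0.95, *Mt1* (metallothionein) -0.84, *Car2* (carbonic anhydrase 2, high in erythroid and early megakaryocytic cells) -0.82 and *Spns2*, an exporter of sphingosine-1-phosphate, -0.78. *Ccnd2* (cyclin D2) and *Rcc1*, a chromatin-bound exchange factor, both had -0.67. For *Ccnd2* the libraries had -0.36, -0.43 and -1.68, the last with 11 *Kdr*-negative cells. It was -0.32 without library 3, -0.33 with equal weight per cell and -0.10 with *Kdr* above 1, all short of 1.5-fold. *Rac2* was at -0.73 without library 3. In the 3 libraries each of the 12 was lower in *Kdr*-positive cells, since the naming rule requires it.

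Cell cycle genes were compared as well. All 19 compared genes of 20 in the S phase list had a log2 ratio below 0, with a median of -0.21 (-0.25, -0.02 and -0.58 in the 3 libraries). Of the 19, *Cdc6*, a replication licensing factor, was the only gene called lower, beside 0.53% of all genes. The list summed to 16.2, 18.3 and 17.4 UMIs per 10,000 in *Kdr*-positive and 19.3, 18.5 and 24.5 in *Kdr*-negative cells. The 20 genes of G2 and M phase had a median of 0.07 (-0.13, 0.07 and 0.32), and the sign of the median differed between libraries. None was called higher or lower, beside 3.59% and 0.53% of all genes.

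Because the endothelial genes and the globins were each carried by a subset of cells, the comparison was repeated on the 114 *Kdr*-positive and 92 *Kdr*-negative cells with fewer than 10 endothelial and 1,000 globin UMIs per 10,000. Median depth was 39,198.5 and 36,510 UMIs, and the libraries gave 36, 48 and 30 *Kdr*-positive and 46, 35 and 11 *Kdr*-negative cells. Here 59 genes were higher (1.04% of the 5,659) and 40 were lower (0.707%). Of the 203 genes higher over all cells 39 were again called, and of the 30 lower genes 23. The limit on endothelial transcripts removed cells by the same list, so the smaller ratios of its members follow in part from the choice: *Cdh5* was at 0.0909 against 0.0557 and *Cldn5* at 0.0613 against 0.0529. The median of the endothelial list was 0.32, with -0.15, 0.19 and 0.13 in the 3 libraries, and its member *Icam2* was called lower at -0.87.

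In these cells the megakaryocyte genes stood somewhat further apart. All 17 surface genes had a log2 ratio above 0, with a median of 0.30 (0.28, 0.26 and 0.47 in the 3 libraries), and 20 of the 25 granule, enzyme and cytoskeleton genes did, also with a median of 0.30 (0.26, 0.26 and 0.40), while the median of all genes compared was 0.03. *Pf4* was at 203 against 138 and *Itga2b* at 7.83 against 5.86. The gene *Serpine2*, a protease inhibitor of platelet granules, was the only called member of the 2 lists, at a log2 ratio of 0.60. *Gata2*, a factor of early progenitors and mast cells, was called lower at -0.59. *Flt1* was called higher at 0.70. Among the lower genes, *Gm15915* was at -1.55, *Rac2* at -0.87, *Phgdh* at -0.91 and *Ccnd2* at -0.95, while *Shmt2* at -0.56 and *Psmb10* at -0.54 no longer reached 1.5-fold.

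The same *Kdr* threshold was applied to clusters 3, 4 and 5 to show how the endothelial difference compares. The median log2 ratio of the 12 endothelial genes was 2.96, 3.101 and 2.76 there (88 against 151, 117 against 395 and 414 against 1,154 cells), above the 1.68 of cluster 6. In each library, too, clusters 3, 4 and 5 had medians of 2.22 to 3.71, against 2.06, 1.32 and 2.15 in cluster 6. These medians also depend on the *Kdr*-negative cells. There *Esam* was at 0.796 in cluster 6 against 0.155, 0.116 and 0.151 in clusters 3, 4 and 5. *Tie1* was at 0.343 against 0.0786, 0.0604 and 0.152, but *Cdh5* at 0.0926 against 0.195, 0.167 and 0.211. The log2 ratio of *Cdh5* was 2.95 in cluster 6 and 3.25, 3.51 and 3.26 in clusters 3, 4 and 5. That of *Cldn5* was 2.98 beside 2.87, 3.64 and 4.001. Of the *Kdr*-positive cells, 78.4%, 49.6% and 87.0% had 10 or more endothelial UMIs per 10,000 in clusters 3, 4 and 5, and 44.0% in cluster 6. Of the *Kdr*-negative cells, 11.9%, 5.06%, 12.7% and 9.80% did. Against clusters 3 and 5 this share of the *Kdr*-positive cells was lower in cluster 6 in each library, at 39.3%, 54.6% and 21.1% in libraries 1, 2 and 3, beside 61.5%, 83.1% and 50.0% in cluster 3 (the last from 4 cells) and 85.3%, 88.1% and 84.0% in cluster 5. Against cluster 4, at 48.0%, 49.0% and 56.2%, the order turned round in library 2. Depth differed between the groups in clusters 3 and 5, where *Kdr*-positive cells had medians of 10,789.5 and 16,244.5 UMIs and *Kdr*-negative cells 33,339 and 39,193.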

How the data were processed

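Single-cell RNA was captured with 10x Genomics 3′ v3 chemistry. Per the labels, the authors used Cell Ranger 3.1.0 and Seurat 3.1.5 with the mm10 genome (GRCm38), and the study's methods state that libraries were aggregated with batch-effect removal. The gene annotation behind the counts is not given in the sources used here. The deposited count table holds unnormalized UMI counts per Ensembl gene and cell, and all values were whole. The authors' table of normalized values and their UMAP coordinates were not used, and their cluster number was used as the cell annotation. Gene names and positions came from GENCODE M21 on GRCm38. They named 27,645 of 27,998 genes, and counts of equal names were summed, leaving 27,994 genes. Promoter windows came from RefSeq.

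Because no label ties cells to pools or times, the matrix was treated as 1 sample with no P value. Ratios are of summed UMIs, with exact intervals (Poisson for levels, Clopper-Pearson for shares, conditional binomial for ratios). A count of 0 was taken to allow up to 3. Named genes are *Kdr*, *Itga2b*, *Pf4*, the members of 19 lists and, in each direction, the 12 genes with the largest ratio among those with a level of at least 0.5 and 1 direction in all 3 libraries. The same rule was applied to the cells with few endothelial transcripts. The cells, lists and rule were chosen with earlier results of these data known. Thinning to 5,000 UMIs used random seed 1 and Scrublet seed 0. The comparison was run on simulated counts with planted changes and Poisson error only. These had no spread between cells or libraries, so they cannot tell how calls behave where few cells carry a gene. Alternatives were other *Kdr* thresholds, matched or thinned depth, equal weight per cell, centring, other level and fold limits, leaving out each library, called doublets, cells with a *Cdh5* UMI, globin-rich cells or cells with endothelial transcripts. Scripts ran in Python 3.11.15 with scipy 1.17.1, pandas 2.3.3, numpy 2.4.6, matplotlib 3.10.9 and scanpy 1.11.5.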

Additional observations from a re-analysis of the deposited data

How the results depend on the processing

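The share of *Kdr*-positive cells, 67.0%, was 82.5% with *Kdr* above 0, 43.7% above 1 and 45.95% after thinning to 5,000 UMIs, 63.1 to 72.6% when 1 library was left out, and 55.3% among cells with few endothelial or globin UMIs. The counts of 203 higher and 30 lower genes became 455 and 174 after thinning, 792 and 106 at a level of 0.05, 18 and 7 at a level of 1, and 91 and 5 at 2-fold. They were 228 to 277 and 32 to 102 when 1 library was left out. There were 9 lower genes with *Kdr* above 0, 65 at 20,000 to 60,000 UMIs, and there were 101 higher genes without cells with a *Cdh5* UMI and 59 among cells with few endothelial or globin UMIs. The endothelial median of 1.68 stayed above 0 in all settings, at 1.36 to 1.97 when 1 library was left out, and moved to 1.08 with *Kdr* above 0, to 0.43 without cells with a *Cdh5* UMI and to 0.32 with few endothelial UMIs. The median of megakaryocyte surface genes, 0.19, was -0.066 and 0.033 with *Kdr* above 0 and above 1 and 0.36 at 20,000 to 60,000 UMIs. The granule, enzyme and cytoskeleton median of 0.13 was -0.064 and 0.012 at those thresholds, 0.22 after thinning, 0.33 at matched depth, 0.29 without *Cdh5*, 0.30 with few endothelial UMIs and 0.10 to 0.23 when 1 library was left out. The log2 ratio of median depth, -0.08, was 0.52 and -0.95 at those thresholds and -0.42 to 0.09 when 1 library was left out. *Hbb-y* turned to -0.77 without globin-rich cells and to -1.20 with few endothelial or globin UMIs, and *Fabp4* to -0.070 in the latter, where fewer cells enter. The cause of the other shifts was not tested. The settings on globin-rich cells and on few endothelial transcripts were chosen after seeing the data. No paired analysis was possible because the results come from no test; the ratios within each library stand in the report. Depth limits what can be said of single cells, since 33 *Kdr*-positive cells rest on 1 UMI.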

Other observations

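Housekeeping genes of translation and energy supply showed small shifts over many members. Of 85 ribosomal protein genes 82 were compared, and 81 of these had a log2 ratio below 0 between *Kdr*-positive and *Kdr*-negative cells, with a median of -0.13 (-0.09, -0.15 and -0.20 in libraries 1, 2 and 3). Their summed level was 2,082, 1,910 and 2,035 UMIs per 10,000 in *Kdr*-positive and 2,218, 2,129 and 2,340 in *Kdr*-negative cells, and the median was also -0.13 among cells with few endothelial or globin UMIs. This list was put together after the data had been seen, and several of its genes share reads with near-identical copies. Of 13 compared genes of hypoxia and glycolysis, 3 had a log2 ratio above 0 and the median was -0.13. None was called higher or lower, beside 3.59% and 0.53% of all genes. Immediate early and heat shock genes had a median of 0.15 over 10 compared genes, with *Hsp90aa1*, a chaperone, at 18.5 against 22.1 and *Egr1* at 1.26 against 0.877 UMIs per 10,000.

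Among the 206 cells with few endothelial or globin UMIs, the 12 genes with the largest ratios in the direction of *Kdr*-positive cells included *Timp3*, an inhibitor of matrix proteases, at 5.61 against 3.68 UMIs per 10,000, *Gnaz*, a G protein subunit of platelets, at 3.104 against 2.02, the calcium channel gene *Trpc6* at 0.954 against 0.619, *Mylk* (myosin light chain kinase) at 0.804 against 0.510 and *Serpinh1*, a collagen chaperone, at 0.708 against 0.432. *Pf4* itself was among the 12, and *Hist1h2bc* headed them at a log2 ratio of 0.93, with 0.42, 0.03 and 2.64 in the 3 libraries. The chemokine gene *Cxcl5* was at 0.359 against 0.232 over all 309 cells, with 0.269 against 0.357 in library 1 and 0.360 against 0.0467 in library 3, so that its direction differed between libraries. It was called higher, at a log2 ratio of 1.096, among the cells with few endothelial or globin UMIs.

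ETS cores were found in 28.5% of the promoter windows of the genes higher in *Kdr*-positive cells (207 windows), in 25.9% of those of the lower genes (27 windows) and in 42.9% of those of all genes compared (5,748 windows). For GATA cores the shares were 9.66%, 7.41% and 8.75%. The windows covered 154 of the 203 higher, 25 of the 30 lower and 4,561 of the 5,659 compared genes, so the shares are void as a check of all genes called higher.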
